A study of Mus musculus with 23 samples.

Results

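Gene expression was compared between 6 h and 2 h of refeeding after a 24 h fast in the proximal small intestine of mice that received no drug. The comparison rests on 4 of the 23 libraries of the series, chosen by their labels: wild type refed 2 h, Ddit4-/- (Ddit4 knockout) refed 2 h, wild type refed 6 h and Ddit4-/- refed 6 h. Doxorubicin, given at 20 mg/kg by intraperitoneal injection to the mice of 15 of the other libraries, was given to none of these 4. All mice were labelled male, and ages, the strain, the time of day and whether mice were pooled are not given in the sources used here. Each genotype and time is 1 library, so the differences were taken within genotype and the wild-type and knockout libraries stood in for replicates. A p-value here therefore reflects the scatter among single libraries, part of which may be technical. Whole tissue was used, so fewer cells of a type and less RNA per cell cannot be told apart. The hours of refeeding also cannot be told apart from the hour of harvest.

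A meal after a fast is a change of state for the intestinal epithelium. Enterocytes take up sugars, peptides and fat, dividing crypt cells at the base of the villi replace the lining every few days, and protein synthesis is raised through mTORC1, the nutrient-sensing kinase complex that the Ddit4 protein (REDD1) inhibits. Protein chaperones, which fold new and damaged proteins in the cytosol and in the endoplasmic reticulum (ER), are induced when the load of unfolded protein grows.

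The labels were first set against the data. Ddit4 (chr10:59949669-59951834, minus strand, mm10) stood at 304 normalized reads in wild type at 2 h and at 134 at 6 h, and at 0 in both knockout libraries, where 0 reads allow up to 3. Enterocyte markers (14 genes, absorptive cells) summed to 1270000 and 1990000 in wild type at 2 h and 6 h and to 1420000 and 1530000 in the knockout, so these markers were abundant in all 4 libraries. The wild-type 6 h library also held pancreatic acinar transcripts, with 16 measured markers summing to 241000 (1.26% of its values) against 1870, 1570 and 887 in the other 3. The 1 measured marker of the duodenal Brunner glands stood at 699 in the wild-type 6 h library and at 0 in the other 3. The knockout 2 h library had 0 Y-linked reads although its label says male, and the other 3 had 1088 to 1462. Depth was 17028381 and 20539302 reads in genes at 2 h (wild type, knockout) and 11418115 and 14586932 at 6 h. Tested genes at 0 numbered 39 and 59 at 2 h and 196 and 448 at 6 h. The 448 of the knockout 6 h library was the highest of the 23 libraries, whose median was 62. The part of these differences in the results was not tested, and the counts below are therefore also given without the wild-type 6 h or the knockout 2 h library.

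**Figure D1:**
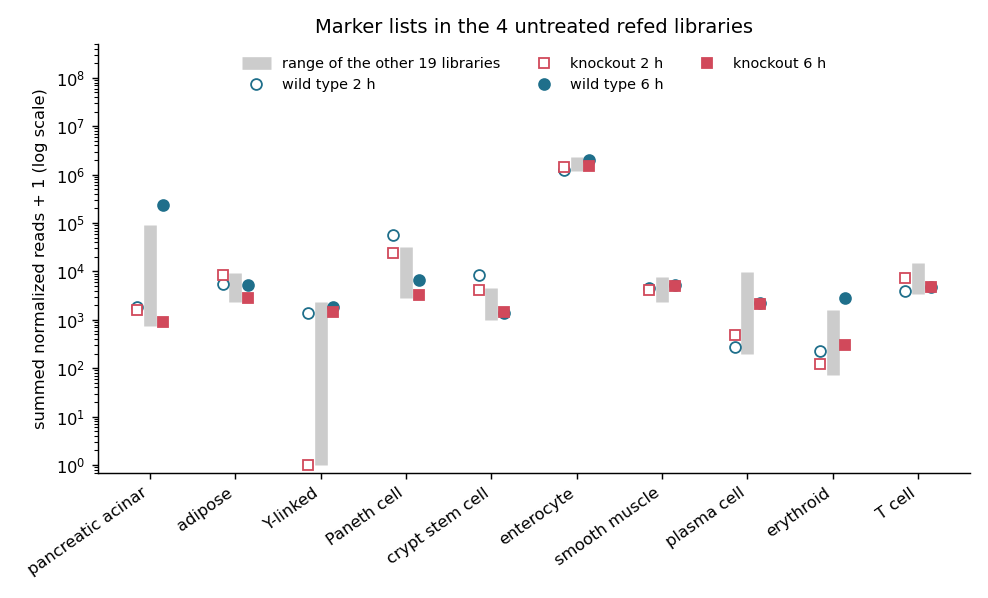
Summed normalized reads plus 1 (log axis) of 10 marker lists in the 4 libraries (open symbols 2 h, filled 6 h, circles wild type, squares knockout), with the range of the other 19 libraries as grey bars. Pancreatic transcripts stand out in wild type at 6 h (241000), Y-linked reads are at 0 in the knockout at 2 h, and Paneth and crypt stem cell markers are lower at 6 h in both genotypes.

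Of 11939 genes tested, 645 (5.4%) fell and 430 (3.6%) rose between 2 h and 6 h (limma, Benjamini-Hochberg adjusted p below 0.05), and 3198 had an unadjusted p below 0.05. The falls included chaperones, genes of ribosome assembly, cell division genes and secreted products of Paneth cells, and the rises included single genes of absorption, digestion and the lysosome and the oxygenase gene Cyp1a1. All 1075 had the same sign in both genotypes, as did 7776 of all 11939 genes tested. A call on the mean of both genotypes favours such agreement. Differences are log2 of (normalized reads + 1) at 6 h minus 2 h, averaged over the genotypes, with a standard error, and folds are on that scale; the median over all genes was -0.05. Among the fallen genes 30 had 0 reads in both 6 h libraries. Leaving out the wild-type 2 h library left 32 calls (15 rises, 17 falls), leaving out the knockout 2 h library left 166, and 20 genes were called without any 1 of the 4 libraries. Without the wild-type 6 h library 989 genes were called, 527 of them shared, and without the knockout 6 h library 757, 443 of them shared. Without both the wild-type 6 h and the knockout 2 h library, 349 genes were called (64 rises, 285 falls), 223 of them shared; this omission was chosen after seeing the data. Below, each pair of levels is in normalized reads, the wild type first and the knockout second.

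**Figure D2:**
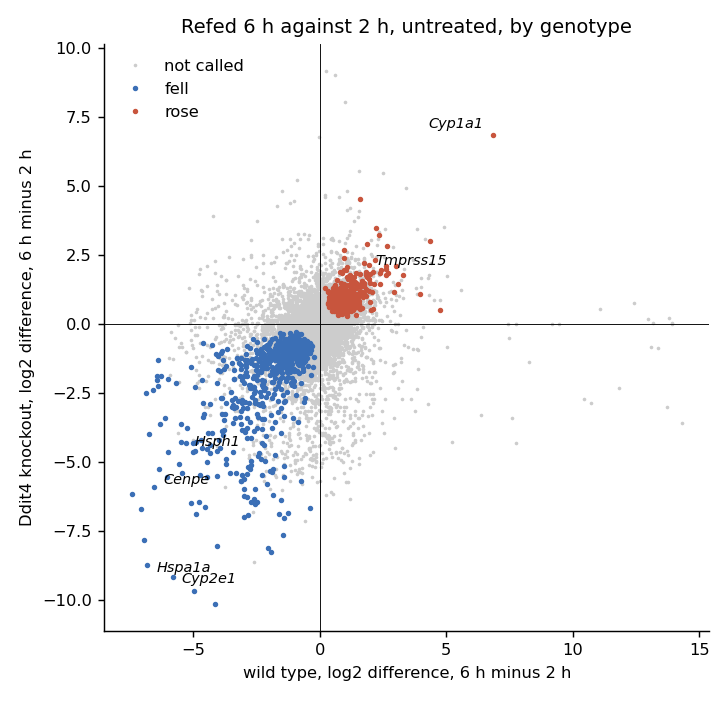
Log2 difference, 6 h minus 2 h, in wild type (x axis) and in the Ddit4 knockout (y axis), 1 point per gene (11939), coloured by the limma call. Fallen genes (645) and risen genes (430) lie in the quadrants where both genotypes moved the same way; pancreatic genes such as Pnlip (14.3 in wild type, -3.61 in the knockout) lie at the far right and were not called.

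Cytosolic and mitochondrial chaperones held the gene with the smallest adjusted p of all, Hsph1. Of the 24 genes of the heat shock list, 15 fell, 0 rose and 9 were not called, against 5.4% of all genes falling, and the list's median difference was -1.14. The summed level of the list was 86000 and 65300 normalized reads at 2 h and 29700 and 33300 at 6 h. The 2 h libraries were the 2 highest of all 23, whose other members ranged from 21100 to 42000, and the 6 h libraries lay inside that range. Fasted mice had 31500 and 33400 and mice fed ad libitum 35900 and 32200, all below both 2 h values.

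Among the members, Hsph1 (chr5:149614287-149636376, minus strand), which encodes the HSP110 nucleotide exchange factor that assists HSP70, stood at 5270 and 2970 normalized reads at 2 h and at 139 and 218 at 6 h. It fell by 4.50 ± 0.37 on the log2 scale (22.6-fold, adjusted p = 1.8e-05 in limma, the smallest of all 11939 genes), and its 2 h values were the highest of the series, where no other library passed 855. Hspa1b (chr17:34956436-34959238, minus strand), the inducible HSP70, stood at 4240 and 1660 at 2 h and at 38.4 and 103 at 6 h, a difference of -5.37 ± 0.78 (adjusted p = 0.003 in limma). Its neighbour Hspa1a went from 1440 and 428 to 11.7 and 0. The 2 genes are near-identical copies, so the split of reads between them is uncertain, but both were lower at 6 h in both genotypes.

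The constitutive chaperones moved less on the log scale. Hspa8, the constitutive HSP70, was at 19900 and 18300 at 2 h and at 7700 and 9240 at 6 h (difference -1.18 ± 0.17, adjusted p = 0.003 in limma). Hsp90ab1, the constitutive cytosolic HSP90, went from 19900 and 14500 to 4970 and 6900, with a difference of -1.54. Hspd1, the mitochondrial chaperonin HSP60, went from 4840 and 3160 to 998 and 1140, and its lid subunit Hspe1 from 1250 and 768 to 540 and 268. None of these 4 overlapped between the times. Fkbp4, Stip1, Chordc1, Hsp90aa1 and Ahsa1, which are HSP90 itself and its co-chaperones, fell by 1.06 to 1.15 each. The 9 members that were not called included Bag3 (1680 and 1410, then 1200 and 1330) and Hsf1, which encodes the heat shock transcription factor (180 and 181, then 135 and 195). Without the wild-type 2 h library 1 list member was called, against 12 without the knockout 2 h, 16 without the wild-type 6 h and 8 without the knockout 6 h library. Hsph1 was called in each case (adjusted p at most 0.0013 in limma), while the adjusted p of Hspa1b and Hspa8 without the wild-type 2 h library was 0.0596 and 0.0533.

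Heat shock factor binds inverted repeats of GAA, and the promoters of the list were searched for the core GAANNTTC, which is its own reverse complement. In the 250 bases before the RefSeq start site (GRCm38.p6, the same assembly as mm10) it was present in 7 of the 19 list members with a promoter in the table, among them 6 of 12 that fell and 1 of 7 not called, and in 6.1% of the 9579 tested genes with a promoter. The stretch before Hspa1b (chr17:34959239-34959388, minus strand) is shown because its gene had among the largest falls, with the core in capitals.
Hspa1b: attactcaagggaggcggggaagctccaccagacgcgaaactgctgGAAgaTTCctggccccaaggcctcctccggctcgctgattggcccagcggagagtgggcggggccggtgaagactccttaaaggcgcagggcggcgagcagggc
The match is a description of the letters, and binding was not measured.

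Chaperones of the ER fell in part. Of 22 genes of the unfolded protein response list 8 fell, against 5.4% of all genes, 0 rose and 14 were not called, with a median of -0.33. The list summed to 83400 and 106000 at 2 h, the 2 highest levels of the 23 libraries, and to 72300 and 67700 at 6 h, the other 19 lying between 48600 and 69500. Hspa5 (chr2:34771970-34777547, plus strand), which encodes BiP, the main HSP70 of the ER, was at 14200 and 20500 at 2 h and at 8750 and 7560 at 6 h (difference -1.07 ± 0.21, adjusted p = 0.0096 in limma). Pdia4, a disulfide isomerase, went from 1750 and 2110 to 461 and 837, a difference of -1.62. Manf, a secreted ER stress protein, went from 2920 and 4040 to 1730 and 914, and Hyou1, an ER partner of BiP, from 3400 and 4870 to 1890 and 2340. All of these were above their 6 h values in both genotypes at 2 h. The other called members were Pdia6, Creld2, Hsp90b1 and Dnajb11. The members not called included the folding chaperones Calr (10000 and 14800, then 10200 and 10500) and Canx (6190 and 7840, then 4910 and 6420) and also Xbp1 (4310 and 5740, then 5030 and 4290), Ddit3 (278 and 216, then 381 and 162) and Edem1 (3850 and 4530, then 5330 and 5620). Without the knockout 2 h library 3 list members were called and without the wild-type 2 h library 3, against 8 without the wild-type 6 h and 6 without the knockout 6 h library. The adjusted p of Hspa5 was 0.108 without the knockout 2 h library. The ATF4 stress list, a related stress response to amino acid shortage and ER load, had 0 of 17 members called in either direction with a median of -0.92. Its member Asns, asparagine synthetase, was at 460 and 444, then 192 and 256.

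Promoters of ER chaperones carry the ER stress response element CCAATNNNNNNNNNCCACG, in which N is any base. Searched on both strands of the same 250 bases, it was present in 8 of 19 list members with a promoter, in 4 of 6 that fell and 4 of 13 not called, and in 0.125% of all tested genes with a promoter (12 genes). The element thus occurred both in members that fell and in members not called. The stretches of 3 fallen members are given because they show the element in both orientations, with its fixed letters in capitals; in Hsp90b1 it occurs on each strand, and in Creld2 it reads on the opposite strand. They lie at chr12:17266439-17266544 (plus strand), chr15:88819496-88819645 (plus strand) and chr10:86705510-86705674 (minus strand).
Pdia6: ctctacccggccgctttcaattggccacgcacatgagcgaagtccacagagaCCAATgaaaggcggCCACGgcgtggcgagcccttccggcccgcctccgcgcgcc
Creld2: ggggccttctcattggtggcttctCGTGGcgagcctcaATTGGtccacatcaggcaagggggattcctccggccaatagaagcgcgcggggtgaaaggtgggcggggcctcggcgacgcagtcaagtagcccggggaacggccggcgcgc
Hsp90b1: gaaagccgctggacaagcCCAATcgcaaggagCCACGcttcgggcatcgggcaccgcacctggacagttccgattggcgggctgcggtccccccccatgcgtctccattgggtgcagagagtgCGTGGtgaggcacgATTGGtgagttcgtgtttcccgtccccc

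**Figure D3:**
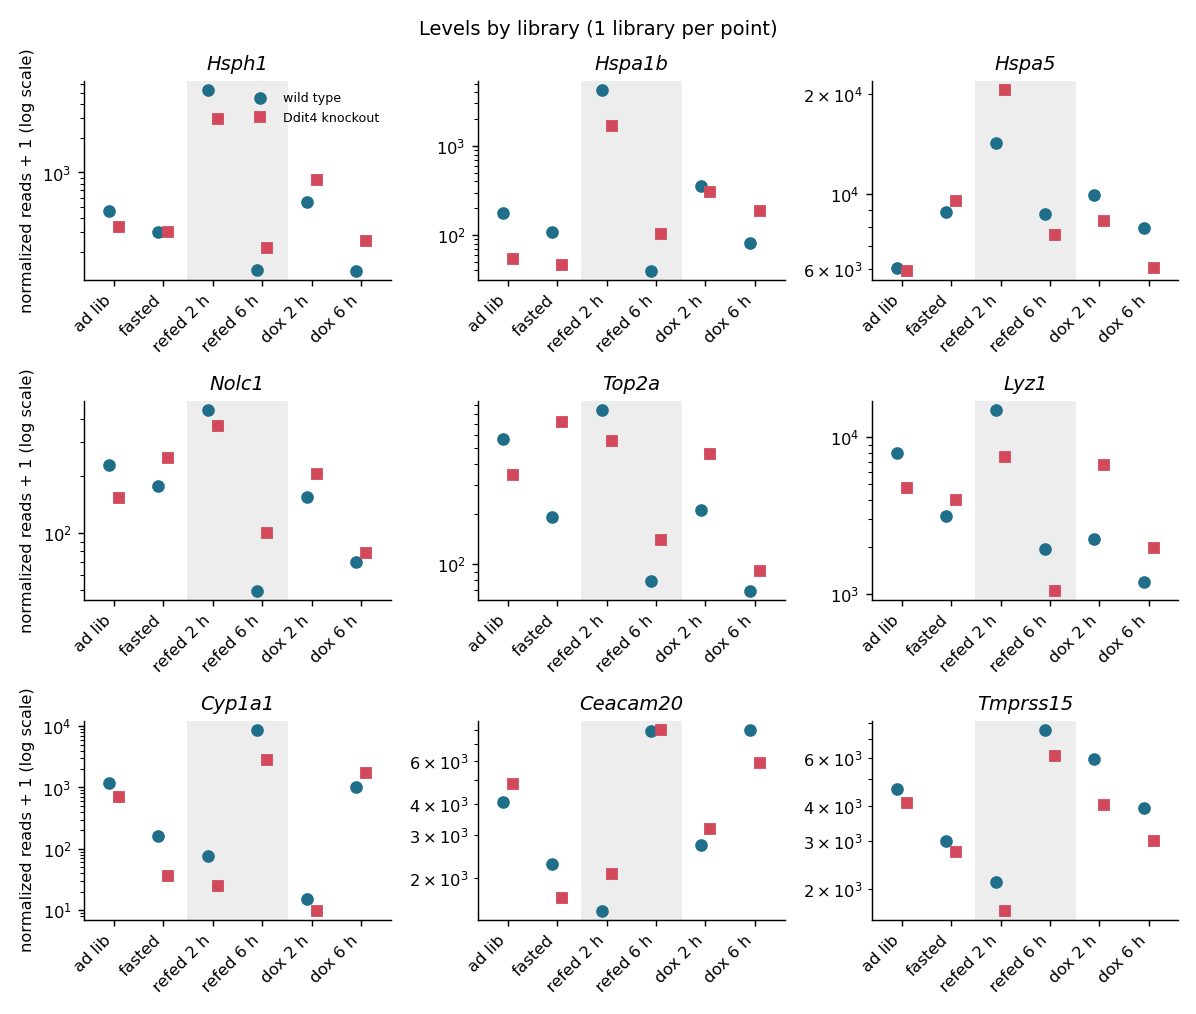
Normalized reads plus 1 (log axis) of 9 genes in 12 libraries, 1 point per library, for mice fed ad libitum, fasted, refed 2 h and 6 h without drug (grey band) and refed 2 h and 6 h after doxorubicin (dox). Hsph1 reaches 5270 and 2970 in the untreated 2 h libraries and 139 and 218 at 6 h; Cyp1a1 moves the other way, from 74.9 and 24 to 8750 and 2830.

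Many genes that build ribosomes fell in the same libraries. The ribosome biogenesis list, whose members transcribe, cut and modify ribosomal RNA in the nucleolus, had 14 of 24 members fall and 0 rise, with a median of -1.50. In 23 of the 24 both 6 h values lay below both 2 h values, against 27.6% of all genes. By the test 5.4% of all genes fell. The list summed to 11100 and 8260 at 2 h, again the 2 highest of 23 libraries (the other 19 had 3200 to 7520), and to 3660 and 4140 at 6 h. Nolc1 (chr19:46075863-46085530, plus strand), a nucleolar chaperone of small nucleolar particles, was at 444 and 364 at 2 h and at 48.5 and 98.3 at 6 h, a difference of -2.52 ± 0.35 (adjusted p = 0.003 in limma). Mybbp1a, a nucleolar protein that acts with RNA polymerase I, went from 568 and 389 to 63.5 and 36.9, where both 6 h values were the lowest of the 23 libraries. Ncl, nucleolin, went from 3150 and 2090 to 747 and 870. These 3 genes were high at 2 h in both mice and low at 6 h in both. Without the wild-type 2 h library 2 members were called (Nolc1 and Mybbp1a, adjusted p = 0.0495 and 0.0491 in limma), without the knockout 2 h library 4, without the wild-type 6 h library 7 and without the knockout 6 h library 10.

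Of the proteins of the ribosome itself, 18 of 39 fell, against 5.4% of all genes, and 0 rose, with a median of -0.93. In 32 of the 39 both 6 h values lay below both 2 h values, against 27.6% of all genes. Rpl4 was at 10400 and 8000 at 2 h and at 4550 and 4230 at 6 h (difference -1.06 ± 0.20, adjusted p = 0.0077 in limma). Rps14 was not called (7830 and 7570, then 12500 and 6870). Many of these genes have processed pseudogenes, so the reads of single members are uncertain, above all at low levels such as those of Rps16 (53.6 and 57.6, then 13.4 and 4.92). Of the 39, 0 were called without the wild-type 2 h library, without the knockout 2 h library 2, without the knockout 6 h library 4 and without the wild-type 6 h library 13. The sum over the list was 102000 and 78600 at 2 h and 59000 and 46200 at 6 h, but fasted mice were at 81300 and 89100, both above the knockout 2 h value. Translation factors had 5 falls and 1 rise among 19. Eif3a, a scaffold of initiation factor eIF3, was at 1780 and 1830 at 2 h and at 953 and 1040 at 6 h. Eif5, which triggers GTP hydrolysis at the start codon, went the other way, from 2020 and 2040 to 4100 and 3700 (difference 0.94 ± 0.17, adjusted p = 0.006 in limma). Its 2 h values were the 2 lowest of the 23 libraries. Neither of the 2 was called without the wild-type 2 h library (adjusted p = 0.108 for Eif3a and 0.102 for Eif5).

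The list of splicing and cold-inducible genes went in both directions, with 5 falls and 1 rise among 14. Of all genes 5.4% fell and 3.6% rose. Srsf7, Srsf5 and Tra2a encode serine- and arginine-rich splicing regulators. Srsf7 fell from 1040 and 931 to 463 and 274, and Tra2a from 973 and 601 to 308 and 184. Srsf5 rose from 247 and 200 to 657 and 490, and its 2 h values were the lowest of the series, where the other 19 libraries ran from 458 to 2510. The list had 1 fall and 0 rises without the wild-type 2 h library, 2 and 0 without the knockout 2 h, 6 and 0 without the wild-type 6 h and 4 and 1 without the knockout 6 h library. Tra2a was not called without the wild-type 2 h library (adjusted p = 0.0861 in limma). Srsf7 was called without any 1 of the 4 libraries, whereas Srsf5 was called only without the knockout 6 h library (adjusted p = 0.0498; 0.143, 0.0592 and 0.0999 without the wild-type 2 h, wild-type 6 h and knockout 2 h libraries).

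Genes of G2/M and mitosis were lower at 6 h throughout. In all 26 genes of the G2/M and mitosis list both 6 h values lay below both 2 h values, against 27.6% of all genes. By the test 13 of the 26 fell, against 5.4% of all genes, 0 rose, and the median was -2.30. The list summed to 6680 and 4160 normalized reads at 2 h and to 1110 and 1310 at 6 h. The wild-type 2 h value was the highest of the 23 libraries, but mice fed ad libitum had 4370 and 3120 and the fasted knockout 4740, so the knockout 2 h value was within the range of other untreated mice. The 6 h values were below all 6 other untreated libraries, the lowest of which was the fasted wild type at 1830. Cenpe, a kinetochore motor, was at 93.4 and 60 at 2 h and at 0 in both 6 h libraries, at least 17.6-fold lower. Here and for other genes at 0 in both 6 h libraries, this bound is the mean of the 2 h values over the mean floor of 3 reads per library, with no 1 added. The bound covers counting error only, not other losses of reads in a library. Top2a (chr11:98992943-99024189, minus strand), the topoisomerase that untangles chromosomes, was at 845 and 549 at 2 h and at 78.6 and 138 at 6 h (difference -2.70 ± 0.53, adjusted p = 0.0092 in limma). Mki67, the antigen Ki-67 of cycling cells, went from 681 and 373 to 63.5 and 117, and Ube2c, which loads ubiquitin for the anaphase-promoting complex, from 571 and 404 to 93.6 and 107. The list's median with Cenpe set at its bound was also -2.30. Plk1 (299 and 169, then 71.9 and 102) and Birc5 (388 and 203, then 127 and 171) were among the 13 not called.

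Of 32 S phase and licensing genes, 13 fell, against 5.4% of all genes, and 0 rose, with a median of -1.81. Mcm5, a subunit of the replicative helicase, went from 395 and 197 to 26.7 and 11.1 (difference -3.93 ± 0.70, adjusted p = 0.0057 in limma). Ccne1, cyclin E1, went from 80.5 and 37.6 to 0 in both, while Ccne2, cyclin E2, was at 173 and 99.1, then 446 and 420, and was not called (adjusted p = 0.11 in limma). Pcna, the replication clamp, was not called (1190 and 1080, then 1080 and 828). Outside the lists, Ccnf (cyclin F) went from 135 and 104 to 0 in both 6 h libraries, at least 27.5-fold lower, and Kifc1, a minus-end kinesin, from 115 and 93.5 to 1.67 and 1.23. Without the wild-type 2 h library 1 of the 26 mitosis genes (Cenpe) and 0 of the 32 S phase genes were called. The counts were 4 and 5 without the knockout 2 h library, 7 and 12 without the wild-type 6 h library and 8 and 5 without the knockout 6 h library.

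Promoters of mitotic genes often hold CCAAT boxes, bound by NF-Y, and the cell cycle homology region TTTGAA. On either strand, CCAAT was present in 19 of 22 list members with a promoter, in 11 of 11 that fell and 8 of 11 not called, and in 40.4% of all tested genes. TTTGAA was present in 8 of 22, in 7 of 11 that fell and 1 of 11 not called, and in 13.1% of all. The 120 bases before Ccnb2 (cyclin B2, chr9:70421555-70421674, minus strand), which hold 3 CCAAT boxes, and before Top2a (chr11:99024190-99024309, minus strand), which hold 3 such boxes and 1 TTTGAA, are shown with these letters in capitals, read on either strand.
Ccnb2: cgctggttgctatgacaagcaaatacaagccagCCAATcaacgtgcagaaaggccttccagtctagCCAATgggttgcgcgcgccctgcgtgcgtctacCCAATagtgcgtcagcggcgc
Top2a: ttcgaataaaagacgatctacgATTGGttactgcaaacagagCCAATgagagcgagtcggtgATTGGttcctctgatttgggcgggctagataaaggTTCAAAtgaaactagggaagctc
Ccnb2 was at 351 and 172 at 2 h and at 45.1 and 57.8 at 6 h.

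Markers of the crypt, where division takes place, were lower in the same libraries. Of 11 measured crypt stem cell markers 5 fell, against 5.4% of all genes, and 0 rose. Olfm4 (chr14:79984081-80023139, plus strand), a secreted glycoprotein of stem cells, was at 5330 and 2090 at 2 h and at 471 and 306 at 6 h, a difference of -3.13 ± 0.63 (adjusted p = 0.01 in limma). Ascl2, the transcription factor of the stem cell state, went from 193 and 118 to 5.01 and 4.92, and Slc12a2, a chloride cotransporter of crypt cells, from 1180 and 656 to 176 and 241. Lgr5, a stem cell receptor, was not called (60.1 and 19.2, then 5.01 and 18.4), nor was Axin2, a Wnt target (236 and 217, then 90.3 and 227).

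Paneth cells sit between the stem cells and secrete antimicrobial proteins, and their markers were lower at 6 h as well. In all 11 measured markers both 6 h values lay below both 2 h values, against 27.6% of all genes. By the test 8 fell, against 5.4% of all genes, and the median was -3.35. The list summed to 56300 and 23900 at 2 h and to 6660 and 3240 at 6 h. The wild-type 2 h sum was the highest of the 23 libraries, mice fed ad libitum had 28300 and 22200 and fasted mice 9920 and 17400, and the knockout 6 h sum was the second lowest. Lyz1 (chr10:117287797-117292868, minus strand), lysozyme, was at 15000 and 7440 at 2 h and at 1930 and 1040 at 6 h (difference -2.89 ± 0.48, adjusted p = 0.0048 in limma). Defa24, an alpha-defensin, went from 17500 and 5990 to 1720 and 558, and Itln1, a lectin, from 8970 and 4790 to 1870 and 976. The alpha-defensins are near-identical copies and the reads of single members are uncertain. Without the wild-type 2 h library 0 of the 11 Paneth and 0 of the 11 crypt markers were called. The counts were 5 and 2 without the knockout 2 h library, 8 and 4 without the wild-type 6 h library and 2 and 4 without the knockout 6 h library. Goblet cell markers had 0 of 9 called, although the difference was below 0 in all 9, and enteroendocrine markers had 3 of 12 fall (Gcg, Chga and Chgb), with 0 called without the wild-type 2 h or the knockout 2 h library, 2 without the wild-type 6 h and 1 without the knockout 6 h library. The part of the crypt and Paneth levels in the fall of the division genes was not tested. Of 6 genes named in the text or its lists (Olfm4, Slc12a2, Lyz1, Defa24, Defa30 and Defa2), 0 were called without the wild-type 2 h library (adjusted p from 0.0941 to 0.149 in limma) and 5 without the knockout 6 h library.

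**Figure D4:**
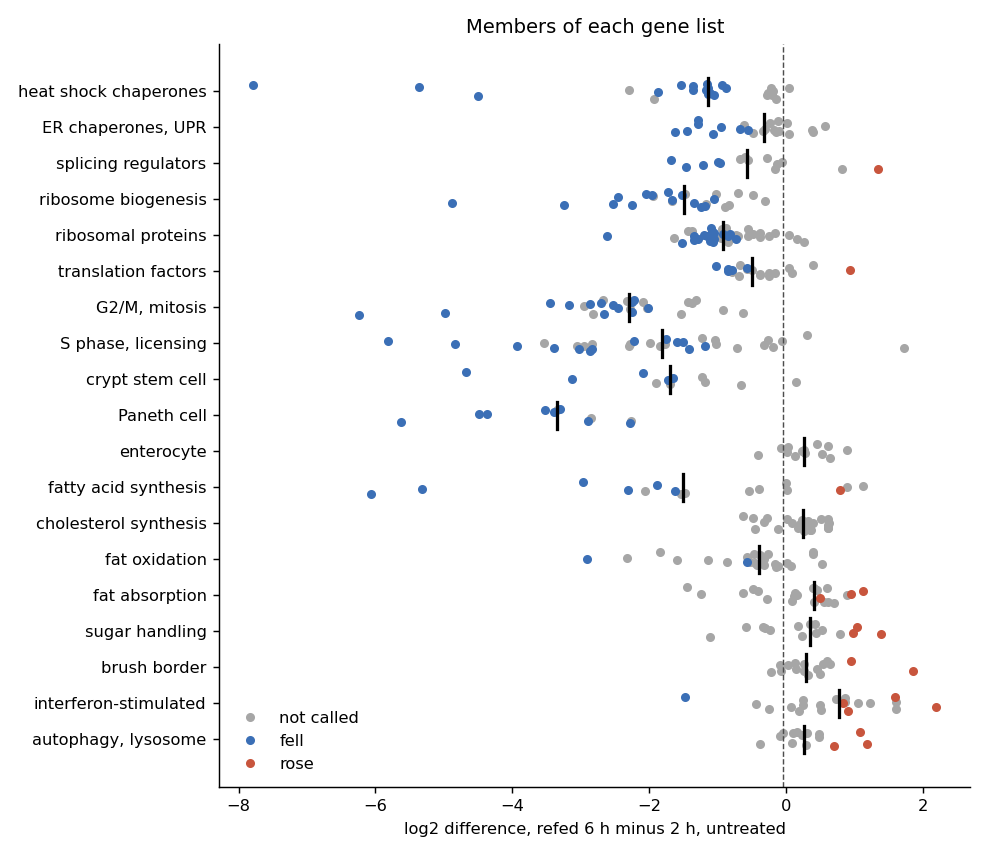
Log2 differences (6 h minus 2 h, untreated) of the tested members of 19 lists (the adipose list is not plotted), 1 point per gene, blue where the gene fell, red where it rose and grey where it was not called, with the list median as a black bar and the median of all genes (-0.05) as a dashed line. Of the 19 lists plotted, Paneth (-3.35), G2/M (-2.30) and S phase (-1.81) have medians farthest to the left, and interferon-stimulated genes (0.78) farthest to the right.

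Lipid genes were divided. Adipocyte markers were high in the untreated 2 h libraries and near the floor at 6 h. Adipoq, the hormone adiponectin, was at 123 and 230 and then at 0 in both (at least 40.6-fold lower). Fabp4, a fatty acid carrier of fat cells, was at 448 and 829 and then at 13.4 and 0, and Cfd, adipsin, at 487 and 1140 and then at 26.7 and 0. The 2 h values of Adipoq ranked 3 and 2 of the 23 libraries and those of Fabp4 and Cfd 3 and 1, so these levels were not the highest throughout (Adipoq reached 422 in another library). In all, 4 of 8 measured adipose markers fell, with a median of -5.76 (-5.09 with genes at 0 set to that bound), and Cidec, which enterocytes also express, did not (4010 and 4470, then 5160 and 2790). Cyp2e1, Scd1 and Thrsp fell in the same libraries. Cyp2e1, an ethanol-inducible cytochrome P450 of liver and fat, was at 150 and 582 at 2 h and at 1.67 and 0 at 6 h (difference -7.50 ± 0.91, adjusted p = 0.00094 in limma) and was called without any 1 of the 4 libraries. Scd1, the stearoyl-CoA desaturase, went from 914 and 3190 to 53.5 and 11.1, and Thrsp, a lipogenic nuclear protein, from 46.2 and 157 to 0 and 3.69. The part of fat tissue in these values was not tested. No adipose marker was called without the wild-type 2 h library and without the knockout 2 h library, against 5 without the wild-type 6 h and 1 without the knockout 6 h library. For Scd1, Thrsp and the 3 adipose genes named, the adjusted p ran from 0.0927 to 0.155 without the wild-type 2 h and from 0.0737 to 0.267 without the knockout 2 h library.

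The fatty acid synthesis list, to which Scd1 and Thrsp belong, had 6 falls and 1 rise among 16, against 5.4% and 3.6% of all genes. Fads2, a desaturase of polyunsaturated fat, went from 794 and 624 to 139 and 261. Fasn, the fatty acid synthase, was not called (695 and 1280, then 319 and 328), nor was Srebf1, its regulator (2010 and 2260, then 4360 and 3570). Mlxipl, which encodes the carbohydrate sensor ChREBP, rose from 986 and 994 to 1460 and 2020 (difference 0.79 ± 0.21, adjusted p = 0.03 in limma). No member of the list was called without the wild-type 2 h or without the knockout 2 h library, while 3 falls were called without the wild-type 6 h and 4 without the knockout 6 h library. Of 24 cholesterol synthesis genes 0 were called, with a median of 0.26.

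Fkbp5, which was higher in fasted than in fed mice, fell. This glucocorticoid-induced co-chaperone (chr17:28399094-28517527) stood at 2050 and 3110 at 2 h, 149 and 275 at 6 h, 2200 and 2610 in fasted mice and 117 and 94.8 in mice fed ad libitum (difference -3.63 ± 0.88, adjusted p = 0.022 in limma). Its adjusted p was 0.113, 0.104 and 0.16 without the wild-type 2 h, wild-type 6 h and knockout 2 h libraries. Fkbp5 was the only fall among 12 tested genes of the glucocorticoid-responsive list, of which 1 rose and 10 were not called. Of all 11939 genes tested 5.4% fell and 3.6% rose, and the list counts in this paragraph were not tested against those shares. Of 24 genes of the PPAR-alpha and fat oxidation list 2 fell and 0 rose. Among those that fell, Acadm, the medium-chain dehydrogenase, went from 3660 and 4120 to 2520 and 2690, and it was not called when any 1 of the 4 libraries was left out (adjusted p from 0.0638 to 0.18). Deptor, an inhibitor of mTOR, was the only called gene of the mTORC1 brake list (14 tested) and fell from 737 and 765 to 197 and 363. It was called only without the knockout 6 h library when 1 was left out (0.0162, otherwise 0.149 to 0.199). Of 17 p53 targets, Aen and Phlda3 fell, from 114 and 126 to 13.4 and 0 and from 129 and 87.1 to 18.4 and 0, while Cdkn1a, the cell cycle inhibitor p21, stood at 5470 and 6520, then 5700 and 5430. Neither Aen nor Phlda3 was called without the wild-type 2 h (0.0533 and 0.157) or the knockout 2 h library (0.0535 and 0.0873), nor Phlda3 without the knockout 6 h library (0.142).

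The largest rise was that of Cyp1a1 (chr9:57687928-57703824, plus strand), the cytochrome P450 that the aryl hydrocarbon receptor induces in response to food-borne ligands. It stood at 74.9 and 24 normalized reads at 2 h and at 8750 and 2830 at 6 h, a difference of 6.84 ± 1.06 (114-fold, adjusted p = 0.0038 in limma). Both 6 h values were the highest of the 23 libraries, while fasted mice had 161 and 34.7 and mice fed ad libitum 1170 and 704. It was called without any 1 of the 4 libraries. Ceacam20, an adhesion molecule of the enterocyte brush border, went from 1480 and 2080 to 7900 and 7950 (difference 2.17 ± 0.31, adjusted p = 0.003 in limma) and was also called in each case. Bmp8a, a ligand of the BMP family, went from 264 and 233 to 1620 and 1010, Dusp3, a MAP kinase phosphatase, from 35.1 and 32.8 to 227 and 235, and Per3, a clock gene, from 34.2 and 3.2 to 104 and 95.9. Omissions ended some of these calls. Dusp3 and Per3 were not called when any 1 of the 4 libraries was left out (adjusted p from 0.0588 to 0.15 and from 0.0596 to 0.326), and Bmp8a was not called without the wild-type 2 h (0.102) or knockout 2 h library (0.0715). Per3 was the only member of its 11 clock genes to be called.

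Some digestive and absorptive genes rose by smaller steps. Tmprss15 (chr16:78953008-79091097, minus strand), enteropeptidase, which activates pancreatic trypsinogen in the duodenum, was at 2120 and 1670 at 2 h and at 7570 and 6090 at 6 h, a difference of 1.85 ± 0.23 (adjusted p = 0.0012 in limma). The 2 h values were the 2 lowest of the series and it was called without any 1 of the 4 libraries. Mme, the peptidase neprilysin, went from 23400 and 24400 to 41600 and 51500, and these were the 2 called genes of 16 in the brush border list, whose median was 0.29. Among the sugar genes 3 of 15 rose, where 3.6% of all genes rose. Slc2a5, the fructose transporter GLUT5, went from 5860 and 5380 to 10800 and 19900, and Tkfc, a triokinase of fructose breakdown, from 13200 and 16500 to 20100 and 42000. The knockout 6 h values of both were the highest of the 23 libraries. Of 22 fat absorption genes 3 rose. The list's median was 0.40 (0.57 in wild type, 0.07 in the knockout), and its sum went from 967000 and 1030000 to 1740000 and 1130000. Apob, the scaffold of chylomicrons, went from 78900 and 80500 to 155000 and 154000. Dgat2, which forms triglyceride, went from 16800 and 14300 to 37200 and 30600, and Mogat2 from 8310 and 10400 to 11900 and 14500. Of these 7 genes, Tmprss15 alone was called without the wild-type 2 h and without the knockout 2 h library, and Mme, Apob, Dgat2 and Mogat2 were called under none of the 4 omissions (adjusted p from 0.0534 to 0.277).

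The autophagy and lysosome list had 3 of 14 rise, against 3.6% of all genes. Its sum was 43000 and 45000 at 2 h and 61800 and 64700 at 6 h. The wild-type 2 h sum was the lowest of 23 libraries. Ctsb, the protease cathepsin B, went from 11900 and 13100 to 19200 and 21700, which were the 2 highest values of the series. Ftl1, the ferritin light chain, went from 4000 and 3900 to 7930 and 7840, also the 2 highest (adjusted p = 0.0035 in limma, called without any 1 library). Tfrc, the transferrin receptor, fell from 3500 and 2980 to 1890 and 909. Fth1, the ferritin heavy chain, was not called (107000 and 105000, then 139000 and 113000). Ctsb was not called without the wild-type 2 h (0.136) or knockout 2 h library (0.0748), and Tfrc was called only without the wild-type 6 h library (0.00906; 0.105 to 0.122 otherwise).

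Interferon-stimulated genes had a median of 0.78, with 4 of 20 rising and 1 falling, against 3.6% and 5.4% of all genes. Ifit1, which binds foreign RNA, went from 927 and 1310 to 3150 and 3510, and Ifit2 from 19.4 and 35.2 to 125 and 122, while Oas2 fell from 37 and 64.8 to 8.36 and 33.2. The list's sum was 12100 and 14900 at 2 h and 23100 and 21100 at 6 h. The median of the other 19 libraries was 23100 and the fasted mice had 12700 and 17100, so the 2 h libraries were low among the 23 and the 6 h libraries lay near the middle. No member was called without the wild-type 2 h or without the knockout 2 h library, 1 without the wild-type 6 h and 6 rises and 1 fall without the knockout 6 h library. Markers of blood and immune cells differed among themselves. Jchain, the joining chain of secreted antibodies, went from 278 and 489 to 2240 and 2090, and was called only without the knockout 6 h library when 1 library was left out (adjusted p = 0.0289 in limma, otherwise 0.113 to 0.145). All 8 measured myeloid markers had higher values at 6 h in both genotypes, with 1 called (Cd68) and 0 called under each of the 4 omissions, against 24.9% of all genes with both 6 h values above both 2 h values. T cell markers had 0 of 10 called and a median of -0.15, and B cell markers 0 of 3 and -1.62. Hbb-bs, a haemoglobin chain, went from 108 and 77.5 to 1680 and 165 and was called only without the knockout 6 h library when 1 library was left out (adjusted p = 0.00942; 0.184 to 0.42 otherwise). The part of blood and immune cells in the interferon values was not tested.

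The wild-type and knockout differences were compared directly. No gene of 11939 passed the test for a difference between genotypes in its 6 h against 2 h change (0% called by limma, 1054 at an unadjusted p below 0.05, 0 called by edgeR and 8 by DESeq2). This test rests on 1 library per genotype and time and 8 residual degrees of freedom, and a p that misses the threshold does not show that the genotypes acted alike. Across all tested genes the wild-type and knockout differences had a Pearson r of 0.347, as a description, the points sharing library depth and tissue. Manf had among the smallest unadjusted p-values, with a fall from 2920 to 1730 in wild type and from 4040 to 914 in the knockout.

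The same pair of refeeding times was also sampled in 4 other libraries, from mice injected with doxorubicin, an anthracycline that damages DNA. The titles of its 2 wild-type libraries say untreated while their drug label says doxorubicin, and the label was followed. Here 17 genes rose (0.142%) and 18 fell (0.151%) of 11939, with 1970 at an unadjusted p below 0.05. Of the 35 called genes, 21 (60%) were called in the same direction without drug, where they were 1.95% of the calls, and 0 were called in the opposite direction. Among them were Cyp1a1, Tfrc, Cntnap1, Dusp3 and Hsph1. Cyp1a1 went from 14 and 8.85 to 1020 and 1740 (difference 6.78, adjusted p = 0.018 in limma), against 6.84 without drug, and Tfrc from 2190 and 2730 to 546 and 495 (difference -2.23, adjusted p = 0.011 in limma), against -1.30. Of the 1075 genes called without drug, 965 (89.8%) had the same sign with it, against 67.4% of all genes, and their median absolute difference was 0.55 in place of 1.15. These genes were chosen by their untreated differences, so a smaller difference in other libraries is partly expected from that choice. Both comparisons also share 1 estimate of the spread per gene, so their calls are not independent. The count of 35 became 0 without the doxorubicin wild-type 6 h library, 3 without the knockout 2 h, 76 without the wild-type 2 h and 497 without the knockout 6 h library.

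The chaperone and division groups stood lower at 2 h in the drugged mice. Hsph1 was at 552 and 855 at 2 h and at 136 and 250 at 6 h with doxorubicin, a difference of -1.89 against -4.50 without. The heat shock list summed to 37700 and 42000 at 2 h and to 25900 and 33800 at 6 h, and its median difference was -0.44 in place of -1.14. Of its 24 members 13 had both 6 h values below both 2 h values with the drug, against 21.6% of all genes, and 16 without it. The G2/M list summed to 1730 and 3150 at 2 h and to 972 and 874 at 6 h (median -1.41, 0 of 26 called), and the Paneth list to 8290 and 31500, then 4350 and 8190 (median -1.59, 0 of 11 called). Crypt stem cell markers had a median of 0.07 against -1.70 without drug, and adipose markers -0.20 against -5.76. The summed level of the crypt markers was nevertheless lower at 6 h with the drug, at 2200 and 3130, then 1750 and 1490. Ribosomal proteins had nearly the same median with the drug (-0.84) as without it (-0.93), as did the fat absorption genes (0.40 in each). Without drug the fat absorption median was 0.57 in wild type and 0.07 in the knockout.

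The difference between the drugged and undrugged changes was itself tested. It passed the threshold for 1 gene of 11939 (0.00838%), with 985 at an unadjusted p below 0.05. That gene was Tmprss15, which with doxorubicin went from 5940 and 4030 at 2 h to 3930 and 2980 at 6 h, opposite in sign to its rise without drug (difference of differences -2.37 ± 0.33, adjusted p = 0.026 in limma). The call was lost on leaving out the untreated wild-type 2 h or the untreated knockout 2 h library. It was also lost without the doxorubicin wild-type 2 h, wild-type 6 h or knockout 6 h library. Each such omission leaves 1 library at that time and drug state. The difference for Hsph1 was 2.61 ± 0.52 and did not pass (adjusted p = 0.28 in limma), and the list medians were not tested.

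**Figure D5:**
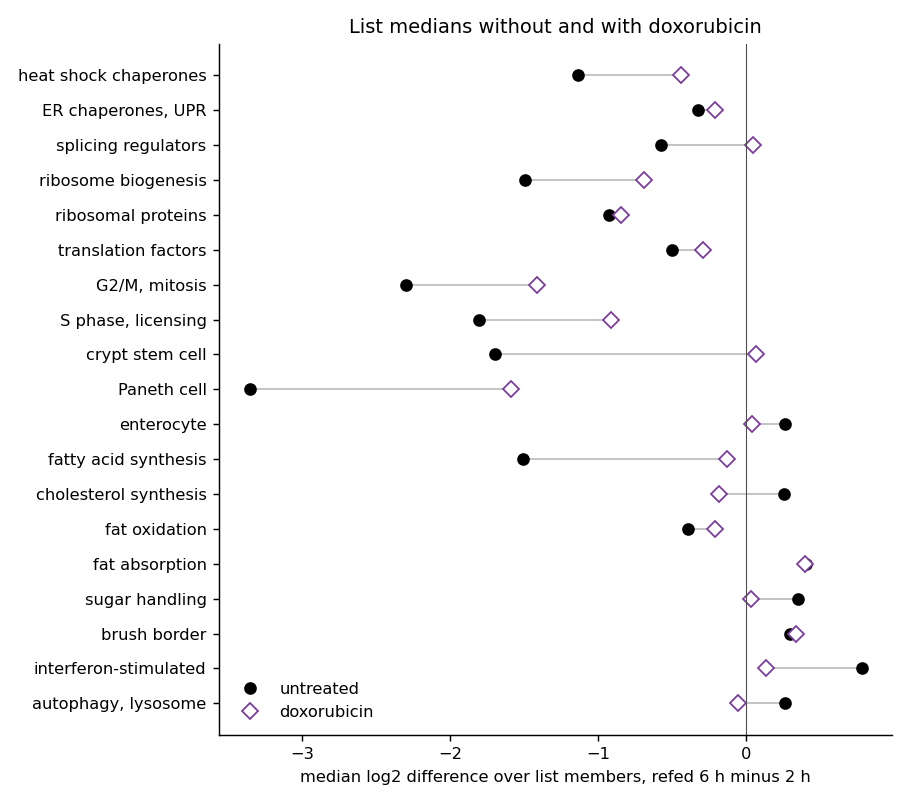
Median log2 difference (6 h minus 2 h) over the tested members of 19 lists, without drug (filled circles) and after doxorubicin (open diamonds). Paneth (-3.35 against -1.59) and crypt stem cell markers (-1.70 against 0.07) lie far apart between the drug states, and ribosomal proteins (-0.93 against -0.84) lie close together.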

How the data were processed

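Poly-A RNA of whole proximal intestine was sequenced from non-directional libraries, per the labels' protocols. For 16259 genes and 23 libraries the authors deposited a normalized signal, which is read counts scaled per library. Trim Galore, STAR, DESeq2 and mm10 are named in the submitters' processing notes without versions; how reads were assigned to genes and the annotation are not given in the sources used here. Each value was a whole multiple of what 1 read is worth (100% within 0.01 of a read), so reads were recovered for depth, for a floor of 3 reads per library and for the count-based alternatives. The floors cover counting error only.

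Values were tested as log2(value + 1) with limma 3.58.1 in R 4.3.3, with a mean-variance trend, over the 11939 genes whose mean over all libraries was 10 or more. The model held 12 conditions and the genotype and was fitted to all 23 libraries, which then share 1 estimate of the spread with 10 residual degrees of freedom. P-values were adjusted by Benjamini-Hochberg over all 11939 genes, with a threshold of 0.05. The script was tested on simulated data. Alternatives included edgeR 4.0.16 and DESeq2 1.42.0 on recovered reads, other scalings, pseudocounts and filters, and the omission of libraries.

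Named genes were the 12 largest rises and 12 largest falls with a mean of at least 50 over the 4 libraries, up to 4 members of each pathway list by p and 3 of each marker list by level, of which a selection is given. Other members named as examples were chosen after their values were seen. The comparison, the lists and their members were chosen with earlier results of these data known. Promoters are RefSeq's, and gene positions are those of the GENCODE M21 annotation.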

Additional observations from a re-analysis of the deposited data

Results flagged for a closer look

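The change of Tmprss15 between 2 h and 6 h of refeeding differed between drug states by a test of the difference itself. The log2 change was 1.85 without drug and -0.52 with doxorubicin, and the difference was -2.37 ± 0.33 (adjusted p = 0.026 in limma, with 2 libraries at each time and drug state). Both genotypes rose without drug (1.83 in wild type, 1.87 in the knockout) and both were lower at 6 h with it (-0.60 and -0.44). The call was lost when the untreated wild-type 2 h or the untreated knockout 2 h library was left out. The same held for the doxorubicin wild-type 2 h, wild-type 6 h and knockout 6 h libraries. Leaving out single libraries outside the comparison, such as the untreated ad libitum wild type or the fasted wild type, also ended it.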

How the results depend on the processing

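All 1075 calls of the untreated comparison kept their sign in each of the 38 settings in which they were tested. The settings share libraries and the genes were selected by the call, so this was favoured in advance. The number of calls did not hold. It was 1634 with DESeq2 (705 rises, 929 falls), 259 with array weights, 459 with untreated libraries only, 88 without the 3 libraries with few or no Y-linked reads and 349 without the wild-type 6 h and knockout 2 h libraries together, and it ranged from 32 to 1257 when 1 library was left out. Rises were 40% of the calls, 26.9% after upper quartile rescaling, 29.6% without the libraries with pancreatic transcripts and 29.4% without the wild-type 6 h library. The cause was not tested. The doxorubicin count of 35 was 15 with no filter on low values, 18 with quantile normalization, 57 with upper quartile rescaling, 16 with edgeR, 382 with DESeq2, 1 with array weights, 18 with the genotype left out, 19 without the 4 libraries with conflicting titles, 65 without those with pancreatic transcripts, 17 without those 3 and 22 without the pair; it ranged from 0 to 497 when 1 library was left out. The count of 1 for the difference between drug states was 2 with a pseudocount of 4, 21 with DESeq2, 38 without the libraries with pancreatic transcripts, 6 without the pair, and 0 with no filter, array weights, the genotype left out, without conflicting titles or without the same 3; it ranged from 0 to 32 when 1 library was left out. The genotype difference had 8 calls with DESeq2 and 0 to 4 when 1 library was left out. The genotype term compares the times within genotype, and 950 genes were called in the untreated comparison without it.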
